A study of Mus musculus with 48 samples.

Results

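Genes that mark T cells and natural killer (NK) cells were followed through 48 mouse lungs. They were Cd3d, Cd3e, Cd3g, Cd4, Cd8a, Lck, Nkg7, Gzma, Prf1 and Ncr1, taken from the table by gene symbol, 10 of the 47561 genes in the deposited table. Each lung was one library of polyA-selected RNA, and levels are in FPKM, fragments scaled to transcript length and library size, which allows genes to be compared per length. The mice were adult C3H/HeN (C3H) or C57Bl/6 (C57B) males and females, written C3HM, C3HF, C57BM and C57BF, with the mouse number from the labels. Each mouse was given an intraperitoneal injection of saline or of aurothioglucose (ATG) at 25 mg/kg, a gold compound that inhibits thioredoxin reductase. The mice then breathed room air or hyperoxia, at least 95% oxygen, for 96 h, which gave 16 groups of 3 mice. The labels name no transgene or deletion in any group. The labels give the C57Bl/6 mice no substrain, and the saline groups rest on the sample labels, since the series text describes ATG for the mice in general.

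T cells recognise antigen through a receptor whose signalling chains include the CD3 proteins encoded by Cd3d, Cd3e and Cd3g. Cd4 and Cd8a encode the coreceptors that separate helper from cytotoxic T cells, and Lck encodes the kinase, bound to those coreceptors, that starts receptor signalling. NK cells kill without a rearranged antigen receptor, and Ncr1 encodes NKp46, an activating receptor that marks them. Cytotoxic T cells and NK cells share the granule program, in which Prf1 encodes perforin, Gzma encodes granzyme A and Nkg7 encodes a granule membrane protein. Lungs hold resident and blood-borne cells of both types. In whole lung RNA, fewer cells of a type and less RNA per cell cannot be told apart.

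The genes lie on several chromosomes of mm10 (GRCm38). Cd3d (chr9:44981786-44987339, plus strand), Cd3e (chr9:44998740-45009627, minus strand) and Cd3g (chr9:44969572-44980431, minus strand) sit beside one another. Cd4 (chr6:124864692-124888221, minus strand), Cd8a (chr6:71373427-71379173, plus strand) and Lck (chr4:129548344-129573641, minus strand) complete the T cell genes. The cytotoxic and NK genes are Nkg7 (chr7:43437073-43438249, plus strand), Gzma (chr13:113093825-113100981, minus strand), Prf1 (chr10:61297833-61304680, plus strand) and Ncr1 (chr7:4337724-4345164, plus strand). Promoter sequence from RefSeq (GRCm38.p6) was found for 9 of the 10 genes, all but Cd4. The 250 bases upstream of the start site are printed for the 4 cytotoxic and NK genes only. All 4 fell in C57B lungs in hyperoxia, but so did Cd3d, Cd3e, Cd3g, Cd8a and Lck, whose windows are not printed. Whether any letters in the windows bear on that response was not tested. The start site is that of RefSeq, so the Nkg7 and Prf1 windows end 65 and 3 bases inside the gene bounds given above, which are those of GENCODE. They run 5′ to 3′ on the gene's strand, and capitals mark the letters TGTGGT or their reverse complement ACCACA, a core that RUNX factors bind.
Nkg7, chr7:43436888-43437137, plus strand: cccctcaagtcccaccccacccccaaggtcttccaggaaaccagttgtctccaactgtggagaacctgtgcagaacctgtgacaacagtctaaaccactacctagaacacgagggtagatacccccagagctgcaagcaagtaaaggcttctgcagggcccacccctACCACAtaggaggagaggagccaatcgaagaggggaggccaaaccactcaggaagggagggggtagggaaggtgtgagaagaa
Gzma, chr13:113100982-113101231, minus strand: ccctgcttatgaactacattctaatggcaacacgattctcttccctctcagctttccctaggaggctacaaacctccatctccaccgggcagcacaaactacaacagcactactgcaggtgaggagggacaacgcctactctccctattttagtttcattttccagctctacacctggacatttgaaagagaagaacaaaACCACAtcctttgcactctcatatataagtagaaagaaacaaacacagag
Prf1, chr10:61297586-61297835, plus strand: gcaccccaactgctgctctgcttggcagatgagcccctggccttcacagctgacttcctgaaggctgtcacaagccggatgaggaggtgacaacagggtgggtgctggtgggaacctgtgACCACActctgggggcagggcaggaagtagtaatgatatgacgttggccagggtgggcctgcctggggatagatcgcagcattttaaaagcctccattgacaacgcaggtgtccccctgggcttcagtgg
Ncr1, chr7:4337474-4337723, plus strand: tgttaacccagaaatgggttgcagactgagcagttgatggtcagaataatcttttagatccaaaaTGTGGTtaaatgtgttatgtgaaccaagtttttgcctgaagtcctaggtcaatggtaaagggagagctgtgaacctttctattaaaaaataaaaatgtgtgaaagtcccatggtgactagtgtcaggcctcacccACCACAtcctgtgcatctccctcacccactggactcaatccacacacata
RUNX letters stood once each in the Nkg7, Gzma, Prf1 and Lck windows, at 2 places in the Ncr1 window and in none of the Cd3d, Cd3e, Cd3g and Cd8a windows. Of 32851 windows of the same length, 14% held them. T-box letters (AGGTGT) were in 6 of the 9 windows against 11.8% of all windows, and ETS letters (AGGAAG) in 5 of the 9 against 29.5%. Both strands were searched, the motifs were picked after the sequences were seen, and no matches overlapped one another in these windows. A match is a description of the sequence and not a measured binding site.

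Depth per library cannot be read from these values. FPKM summed over all genes ranged from 510933 to 748290, and 1 airway gene, Scgb1a1, took 1.2% to 30.2% of that sum. No pair of libraries was identical. The lung markers Sftpc (2996 to 42320 FPKM) and Pecam1 (137.6 to 313.6 FPKM) and the leukocyte marker Ptprc (6.95 to 41.7 FPKM) were present in every library. Rag1, which cuts the T cell receptor genes in thymocytes and should be silent in lung T cells, was at 0 in 33 lungs and at 0.1 FPKM or more in 6, all of them C57B. These were C57BM 13 and 14 (saline, room air), C57BM 16 and C57BF 40 and 42 (ATG, room air) and C57BM 20 (saline, hyperoxia). All but C57BM 20 are thus in the C57B room-air groups, the reference for hyperoxia in that strain. The highest was C57BM 14 (saline, room air), at 2.71 FPKM of Rag1 and 5.54 FPKM of Dntt, another thymocyte gene. This lung also had the highest Cd3d, Cd3e, Cd8a, Lck, Nkg7 and Gzma of all 48. Of the lymph node markers, Glycam1 was at 0 in 45 lungs and at 6.12 FPKM in C3HF 35 and Madcam1 was at 0 in 46, while Cxcl13 and Cr2 passed the filter and are given with the other cell markers. Counts below that change without the 6 Rag1 lungs, an alternative chosen after seeing the data, are given both ways.

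Gzma was the most abundant of the 10 genes, with a median of 28.8 FPKM over the 48 lungs and a range from 2.33 to 81.0. Nkg7 followed with a median of 10.2 FPKM (1.38 to 23.4). Cd3g (median 6.32), Lck (5.91), Cd3d (4.63) and Cd3e (3.48 FPKM) came next. Prf1 (2.79), Ncr1 (2.55), Cd4 (2.25) and Cd8a (1.21 FPKM) were the lowest by median. The ranges of neighbours in this order overlapped over the 48 lungs. All 10 passed the filter on low values in every comparison, which asked for 1 FPKM or more in 3 or more mice. Ncr1 was the only member listed at 0 in any lung: C57BM 22, C57BF 43 and C57BF 44, all in hyperoxia. Lowest values clustered in a few lungs. C3HM 4 (ATG, room air) had the lowest Cd3d, Cd3e and Lck, and C57BM 19 (saline, hyperoxia) had the lowest Cd3g, Cd4 and Cd8a.

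**Figure D1:**
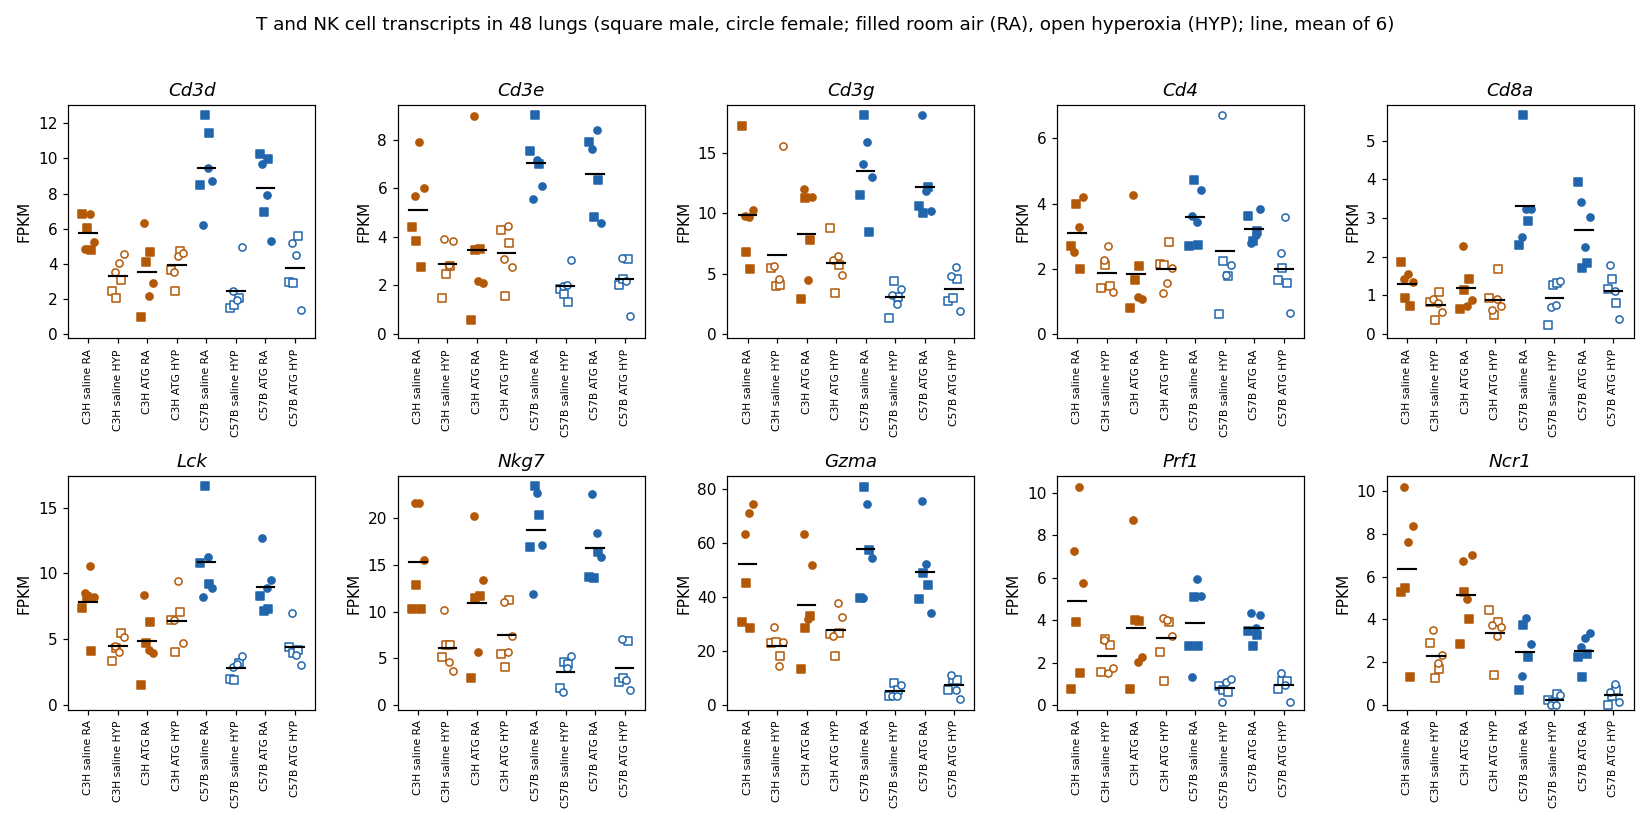
FPKM of each of the 10 genes (1 panel each, linear axis from 0) in the 8 groups of strain, injection and air, with 1 point per lung (6 per group, squares for males, circles for females) and a line at the mean. The C57B hyperoxia lungs sit low in most panels: for Gzma at 3.21 to 8.14 FPKM with saline, against 39.7 to 81.0 in room air.

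The first question was whether the strains differed at baseline, in saline mice that breathed room air (6 C3H against 6 C57B). The T cell genes Cd3d, Cd3e and Cd8a were lower in C3H, and none of the 4 cytotoxic and NK genes passed the test in limma (1 at an unadjusted p under 0.05). Log2 differences throughout are on the log2(FPKM + 1) scale, given with their standard error (SE) and the Benjamini-Hochberg adjusted p of limma over all genes tested. This scale understates the change of low genes. The 3 lower genes are to be read against 7.87% of all genes called lower in C3H, and against a median of -0.10 over all genes. Lower genes made up 66.8% of all strain calls with FPKM as deposited, 48.8% with quantile normalization, which left 1 of the 3 members past the threshold, and 52% with median-ratio scaling.

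Cd8a had a lowest, median and highest value of 0.712, 1.37 and 1.84 FPKM in C3H, and of 2.31, 3.08 and 5.65 FPKM in C57B. It was the 1 member whose strains did not overlap, and it was lower in C3H by a log2 difference of -0.89 ± 0.19 (SE, n = 6 per strain, limma adjusted p = 0.00978). The share of all genes whose strains did not overlap was not counted. Cd8b1, which encodes the partner chain of CD8α, was lower too, at 2.27 ± 0.91 FPKM (SD) in C3H and 6.97 ± 1.42 in C57B (log2 -1.31 ± 0.14 SE, limma adjusted p = 8.55e-05). Cd3d was at 5.76 ± 0.95 FPKM (SD) in C3H and 9.45 ± 2.25 in C57B, a log2 difference of -0.61 ± 0.14 (SE, limma adjusted p = 0.0167). Cd3e was at 5.10 ± 1.82 FPKM in C3H and 7.07 ± 1.20 in C57B (log2 -0.45 ± 0.13 SE, limma adjusted p = 0.0456). Both CD3 genes overlapped between the strains, and the Cd3e call was lost in 9 of 12 fits that left out 1 mouse, with a log2 value of -0.37 without C3HM 3.

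Cd4 did not pass the test, at 3.11 ± 0.86 FPKM (SD) in C3H and 3.6 ± 0.84 in C57B (log2 -0.17 ± 0.17 SE, limma adjusted p = 0.573). Ncr1 had the opposite sign from the T cell genes, with a lowest, median and highest of 1.32, 6.53 and 10.2 FPKM in C3H and 0.728, 2.54 and 4.07 in C57B. Its log2 difference of 1.02 ± 0.31 (SE) did not pass the threshold (limma adjusted p = 0.0564). Without C3HM 3, the C3H lung at 1.32 FPKM, the adjusted p was 0.0135, and without C57BM 14 it was 0.0386. Of the lungs with Rag1, C57BM 13 and 14 are in this comparison. Without them, which leaves 1 C57BM mouse, none of the 3 passed, with log2 values of -0.80 for Cd8a (limma adjusted p = 0.0504), -0.66 for Cd3d (0.0752) and -0.37 for Cd3e (0.306).

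The coreceptors, and the NK gene with a T cell gene, were also compared within each lung as log2 ratios of FPKM + 1 (10 ratio comparisons in all, two-sided exact permutation tests, n = 6 per group, smallest possible p 0.00216). The Cd8a to Cd4 ratio was -0.83 ± 0.37 (SD) in C3H and -0.11 ± 0.24 in C57B at baseline, a difference of -0.72 (exact permutation p = 0.00433, adjusted p = 0.0216). The Ncr1 to Cd3e ratio was 0.17 ± 0.50 (SD) in C3H and -1.29 ± 0.57 in C57B, a difference of 1.46 (exact permutation p = 0.00433, adjusted p = 0.0216). C3H lungs therefore had less Cd8a per Cd4 and more Ncr1 per Cd3e transcript than C57B lungs, and both differences kept their call when any 1 mouse was left out.

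**Figure D2:**
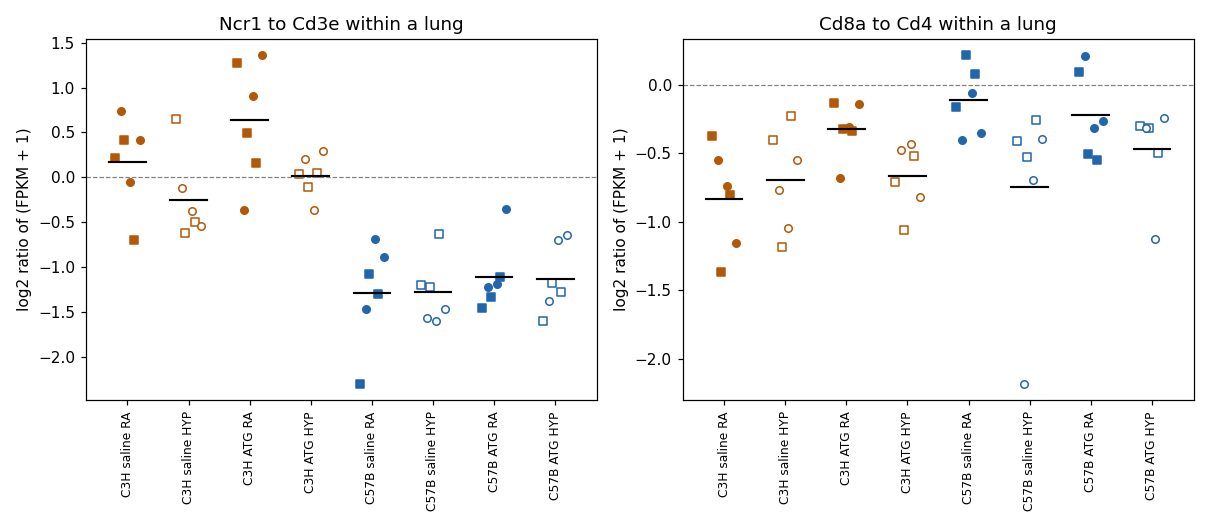
Log2 ratio of Ncr1 to Cd3e and of Cd8a to Cd4, from FPKM + 1, with 1 point per lung and a bar at the mean in the 8 groups. In saline room-air lungs the C3H mean of Ncr1 to Cd3e is 0.17 and the C57B mean is -1.29.

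Of the wider lists, 6 of 17 T cell signalling genes tested and 8 of 18 NK receptor genes were lower in C3H and none higher. Of the 8, 4 were Klra genes, and 4 of 14 were lower without the Klra genes. Over all genes, 7.87% were lower and 3.92% higher in C3H. Thy1, a T cell surface glycoprotein, was at 11.0 ± 1.99 FPKM (SD) in C3H and 17.1 ± 2.83 in C57B. Ccr7, the receptor that guides T cells to lymph nodes, was at 8.08 ± 3.08 and 14.1 ± 2.98 FPKM. Klrd1, the CD94 chain of NK receptors, was at 4.57 ± 1.61 FPKM in C3H and 10.9 ± 1.45 in C57B, and Gzmb, granzyme B, at 2.89 ± 2.17 and 5.92 ± 2.06. Cxcl12, a chemokine of stromal cells, was 1 of 2 ligands of 6 that were higher in C3H, at 83.5 ± 9.13 against 53.1 ± 4.40 FPKM. Klra4 and Klra8, Ly49 receptors of NK cells, were listed at 0 in all 6 C3H lungs and at 0.572 to 4.36 and 0.612 to 2.13 FPKM in C57B. The Klra genes are near-identical copies whose content differs between strains, and the reads were aligned to a C57BL/6J genome, so their values in C3H are uncertain. The list of 4 other T cell receptor complex genes had no call (2 at an unadjusted p under 0.05 with limma), with Trac, the receptor α constant chain, at 9.51 ± 2.32 and 14.1 ± 3.44 FPKM. In the innate-like list of 3 genes, Areg was lower in C3H (3.82 ± 2.83 against 7.03 ± 3.84 FPKM). Markers of other leukocytes moved in both directions. In C3H, 5 of 6 B cell, 6 of 6 neutrophil, 3 of 4 pan-leukocyte and 1 of 6 dendritic cell genes were lower and none higher. Of 5 monocyte genes, 3 were lower and Ly6c2 was higher (129.1 against 61.1 FPKM). Of 6 alveolar macrophage genes, Chil3 was lower (71.7 against 276.1 FPKM) and Mrc1 higher (21.4 against 13.3 FPKM). Their part in the strain differences was not tested.

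Sex was the second baseline question, and no member passed the test in limma (0.669% of all genes did, 2 members at an unadjusted p under 0.05). Genes lower in males made up 64.4% of the sex calls, 44.8% with quantile normalization and 50.7% with median-ratio scaling. The smallest adjusted p was 0.157, for Prf1. None passed for the strain by sex interaction either, which called 0% of all genes, although 4 members had an unadjusted p under 0.05 in limma. The smallest adjusted p was 0.168, for Cd3e. Prf1 shows the pattern behind these values. In C3H it was at 7.25, 10.3 and 5.73 FPKM in the 3 females and at 0.759, 3.93 and 1.53 in the 3 males, whereas in C57B it was at 1.33, 5.92 and 5.13 in females and 2.78, 5.08 and 2.79 in males. The C3H sexes did not overlap and the C57B sexes did. C3HM 2, the male at 3.93 FPKM, decided the outcome of this test. Without it, the interaction of 4 members passed the threshold, and so did 1 member for sex. The 4 were Cd3e (log2 -1.01, limma adjusted p = 0.0281), Nkg7 (-1.10, 0.042), Prf1 (-1.96, 0.0431) and Gzma (-1.27, 0.0457). The share of all genes that passed without C3HM 2 was not counted, so these calls cannot be read as particular to the members.

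The next question was what hyperoxia did in saline mice. Averaged over strains and sexes, all 10 members were lower in hyperoxia (12 lungs) than in room air (12 lungs), where 28.3% of all genes were lower. The members' median log2 difference was -1.15, with a range from -2.21 for Gzma to -0.52 for Cd4, and the median of all genes was 0.01. The 10 calls were kept when any 1 mouse was left out and without the lungs with Rag1. Each strain is described in turn.

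In C57B mice, 9 of 10 members were lower in hyperoxia (30.0% of all genes), every member but Cd4. For the same 9 genes, each of the 6 hyperoxia lungs was below each of the 6 room-air lungs, a separation that 16.3% of all genes showed. The members' median log2 difference was -1.54, and that of all genes -0.06.

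Gzma had the largest difference on the log2(FPKM + 1) scale. Its lowest, median and highest values were 39.7, 56.1 and 81.0 FPKM in room air and 3.21, 4.60 and 8.14 FPKM in hyperoxia, an 11.1-fold difference of means (log2 -3.26 ± 0.23 SE, limma adjusted p = 5.65e-10). Nkg7 went from 11.9, 18.8 and 23.4 FPKM (lowest, median, highest) to 1.38, 4.22 and 5.23 (log2 -2.17 ± 0.24 SE, limma adjusted p = 3.3e-07). Prf1 went from 1.33, 3.93 and 5.92 FPKM to 0.162, 0.809 and 1.25 (log2 -1.37 ± 0.28 SE, limma adjusted p = 0.000347). The granule genes thus fell together, and their hyperoxia and room-air lungs did not overlap.

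Ncr1 in C57B was at 0.728, 2.23, 3.74, 1.37, 4.07 and 2.86 FPKM in the 6 room-air lungs and at 0.241, 0.134, 0.506, 0, 0 and 0.461 in the 6 hyperoxia lungs. The hyperoxia lungs were all below 1 FPKM and 2 were listed at 0, an 11.2-fold difference of means (log2 -1.44 ± 0.27 SE, limma adjusted p = 0.000153). With a pseudocount of 0.1 in place of 1, the log2 difference of Ncr1 was -3.15.

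The CD3 genes of C57B fell by similar factors. Cd3e went from 5.58, 7.07 and 9.03 FPKM (lowest, median, highest) in room air to 1.33, 1.90 and 3.06 in hyperoxia (log2 -1.45 ± 0.14 SE, limma adjusted p = 3.71e-08). Cd3d went from 9.45 ± 2.25 FPKM (SD) to 2.42 ± 1.27 and Cd3g from 13.5 ± 3.39 to 3.03 ± 1.07, 3.91-fold and 4.46-fold differences of means. Lck went from 10.8 ± 3.07 to 2.79 ± 0.73 FPKM (log2 -1.63 ± 0.17 SE). None of these overlapped between room air and hyperoxia.

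Of the coreceptors in C57B, Cd8a passed the test and Cd4 did not with all lungs in the fit. Cd8a went from 2.31, 3.08 and 5.65 FPKM to 0.216, 0.993 and 1.37 (log2 -1.15 ± 0.20 SE, limma adjusted p = 4.95e-05). Cd4 was at 2.69, 3.52 and 4.73 FPKM in room air and at 0.618, 1.96 and 6.72 in hyperoxia, and did not pass (log2 -0.52 ± 0.23 SE, limma adjusted p = 0.0655). The value of 6.72 FPKM was that of C57BF 43, the highest Cd4 of all 48 lungs, and without it Cd4 passed (log2 -0.75, limma adjusted p = 0.00393). The within-lung Cd8a to Cd4 ratio was -0.11 ± 0.24 (SD) in room air and -0.74 ± 0.72 in hyperoxia (difference -0.63, exact permutation p = 0.013, adjusted p = 0.0433). The call was lost in 9 of 12 tests that left out 1 mouse, and without C57BF 43 the difference was -0.34. The Ncr1 to Cd3e ratio differed by 0.01 (exact permutation adjusted p = 0.983), but this value rests on the pseudocount, and with 0.1 it was -1.34 (exact permutation adjusted p = 0.0928).

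In C3H mice, 6 of 10 members were lower in hyperoxia (12.5% of all genes): Cd3d, Cd3e, Lck, Nkg7, Gzma and Ncr1. Only Cd3d and Nkg7 had no overlap between air groups, as 4.13% of all genes did. The members' median log2 difference was -0.64, and that of all genes 0.10. With quantile normalization or median-ratio scaling, which set the median of all genes near 0, lower genes made up 49.2% and 51.7% of all calls in C3H in place of 33.1%.

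Gzma in C3H went from a lowest, median and highest of 28.4, 54.3 and 74.6 FPKM in room air to 14.6, 23.1 and 29.1 in hyperoxia, a 2.39-fold difference of means (log2 -1.15 ± 0.23 SE, limma adjusted p = 0.00053). Nkg7 went from 10.3, 14.2 and 21.6 to 3.69, 5.76 and 10.2 FPKM (log2 -1.21 ± 0.24 SE, limma adjusted p = 0.000618). Ncr1 went from 1.32, 6.53 and 10.2 to 1.27, 2.16 and 3.52 FPKM (log2 -1.05 ± 0.27 SE, limma adjusted p = 0.00452). Every C3H hyperoxia lung kept more than 1 FPKM of Ncr1, whereas no C57B hyperoxia lung with saline reached it.

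Among the T cell genes of C3H, Cd3d went from 5.76 ± 0.95 FPKM (SD) to 3.29 ± 0.95, Cd3e from 5.10 ± 1.82 to 2.90 ± 0.91 and Lck from 7.82 ± 2.11 to 4.48 ± 0.78. These are 1.75-fold, 1.76-fold and 1.74-fold differences of means. Cd3g (log2 -0.60 ± 0.28 SE), Cd4 (-0.52 ± 0.23), Cd8a (-0.38 ± 0.20) and Prf1 (-0.60 ± 0.28) did not pass, with limma adjusted p from 0.0905 to 0.133. For Cd3g, C3HF 33 stood at 15.5 FPKM in hyperoxia while the other 5 lungs were between 3.97 and 5.59.

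Whether the strains differed in response was tested as the interaction, the effect in C3H minus the effect in C57B. The response was less negative in C3H for 5 members, where 8.71% of all genes had a higher interaction. They were Gzma (log2 2.11 ± 0.32 SE, limma adjusted p = 0.000437), Cd3d (0.97 ± 0.23, 0.00991), Cd3e (0.82 ± 0.19, 0.0105), Lck (0.97 ± 0.23, 0.0114) and Cd3g (1.26 ± 0.39, 0.0407). The Cd3g call was lost in 21 of 31 alternative fits. Cd8a (0.77 ± 0.28 SE) and Nkg7 (0.96 ± 0.34) did not pass (limma adjusted p = 0.0726 and 0.0729), nor did Prf1 (0.77 ± 0.40), Ncr1 (0.39 ± 0.38) or Cd4 (0.01 ± 0.33). The sizes for Ncr1 and Prf1 are uncertain, since both were low in C57B hyperoxia lungs. Over the 31 alternative fits Ncr1 ranged from 0.0411 to 1.87 and Prf1 from 0.435 to 1.48, without a call. The members' median was 0.89 and that of all genes 0.15. Lower genes made up 24.4% of all interaction calls with FPKM as deposited, 50.9% with quantile normalization and 53.5% with median-ratio scaling. Quantile normalization left 2 of the 5 members past the threshold. Leaving out the lungs with Rag1 also left 2, Gzma (log2 2.25, limma adjusted p = 0.00138) and Cd3d (1.01, 0.0448).

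**Figure D3:**
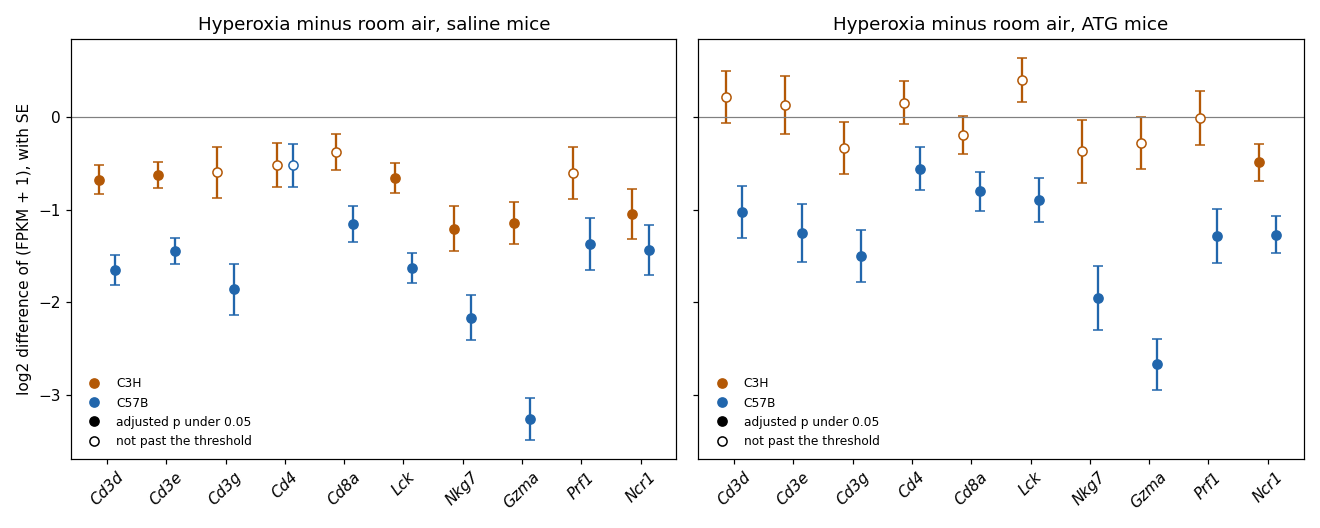
Log2(FPKM + 1) difference between hyperoxia and room air for each gene, in C3H and C57B mice with saline (left) and with ATG (right), with bars of 1 SE either way and filled points where the limma adjusted p is under 0.05. In saline mice Gzma is at -3.26 in C57B and -1.15 in C3H, while the points for Cd4 (-0.52 in both strains) fall together.

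In the end state, saline lungs after hyperoxia, 7 of 10 members were higher in C3H than in C57B (16.1% of all genes). Gzma was at 14.6 to 29.1 FPKM in C3H and 3.21 to 8.14 in C57B (log2 1.92 ± 0.23 SE, limma adjusted p = 3.1e-06). Ncr1 was at 1.27 to 3.52 FPKM in C3H and 0 to 0.506 in C57B (log2 1.41 ± 0.27 SE, limma adjusted p = 0.000647), and Prf1 at 1.49 to 3.11 and 0.162 to 1.25 (log2 0.88 ± 0.28 SE, limma adjusted p = 0.0237). These 3 had no overlap between strains, and the share of all genes without such overlap was not counted. Lck (log2 0.54), Cd3g (0.80), Cd3e (0.37) and Nkg7 (0.66) passed with overlap and adjusted p from 0.0188 to 0.0486. Cd3d (0.36), Cd8a (-0.11) and Cd4 (-0.16) did not pass. The count of 7 depends on single lungs, at 4 without C3HM 8 or C3HF 31, 3 without C57BF 43 and 2 without C3HM 9. It was 4 without the lungs with Rag1, with median-ratio scaling or with no filter on low values, and 2 with quantile normalization.

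The wider T and NK cell lists were described by the same counts in saline mice. Of all genes, 30.0% were lower and 25.5% higher in C57B, and 12.5% were lower and 25.3% higher in C3H. Of the 4 other T cell receptor complex genes, 4 were lower in C57B hyperoxia lungs and 2 in C3H, where 1 was higher. Trbc2, a receptor β constant chain, went from 24.1 ± 8.33 to 5.51 ± 1.69 FPKM (SD) in C57B and from 15.4 ± 5.65 to 6.22 ± 1.64 in C3H. Cd247, the ζ chain that both T cells and NK cells use, had the smallest adjusted p of this list for the interaction (log2 1.25 ± 0.28 SE, limma adjusted p = 0.00799), and was at 10.4 ± 1.83 FPKM in C3H and 5.64 ± 1.25 in C57B after hyperoxia. Of 18 T cell signalling genes, 15 were lower in C57B and 6 in C3H. Cd27, a costimulatory receptor, went from 4.48 ± 1.54 to 1.05 ± 0.50 FPKM in C57B and from 5.73 ± 1.62 to 2.84 ± 0.55 in C3H. Cd2, an adhesion receptor, went from 16.8 ± 3.29 to 5.74 ± 2.12 FPKM in C57B and from 15.5 ± 3.07 to 8.18 ± 1.79 in C3H.

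Of 8 granule and effector genes, 6 were lower and 1 higher in C57B, and 2 were lower in C3H. Gzmb went from 5.92 ± 2.06 to 0.843 ± 0.540 FPKM (SD) in C57B, and its interaction was 1.55 ± 0.31 (SE, limma adjusted p = 0.00405). Ccl5, a chemokine made by cytotoxic cells, went from 65.1 ± 13.5 to 16.4 ± 7.69 FPKM in C57B and from 52.7 ± 17.9 to 24.7 ± 8.44 in C3H. Of 18 NK receptor and regulator genes, 14 were lower in C57B and 5 in C3H. The 4 Klra genes among them were near or at 0 in C3H room-air lungs and could hardly fall there, and without them the counts were 10 and 5 of 14. Klre1, an NK receptor chain, went from 2.46 ± 0.47 to 0.112 ± 0.134 FPKM in C57B and from 1.07 ± 0.64 to 0.203 ± 0.195 in C3H. Klrd1 in C57B went from 10.9 ± 1.45 to 1.86 ± 0.98 FPKM.

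Of 11 transcription factor and homing genes, 6 were lower and 1 higher in C57B, and 3 were lower and 2 higher in C3H. Tbx21, the T-bet factor of cytotoxic cells, went from a mean of 1.61 to 0.217 FPKM in C57B and was at 1.00 in C3H after hyperoxia, with an interaction of 0.85 ± 0.21 (SE, limma adjusted p = 0.0138). Lef1, a factor of naive T cells, was lower in both strains (log2 -0.96 in C57B and -1 in C3H), as was Gata3 (-0.93 and -0.89). S1pr1 was higher in both, going from 87.2 to 317 FPKM in C57B and from 84.3 to 195 in C3H. It is a lymphocyte exit receptor that lung endothelium also expresses strongly. In the innate-like list of 3 genes, 1 was lower in each strain and Areg was higher in both, going from 7.03 to 53.6 FPKM in C57B and from 3.82 to 41.0 in C3H. Areg is a growth factor that epithelium makes as well as lymphocytes.

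Among 6 ligands that sustain or recruit lymphocytes, 4 were lower and 1 higher in C57B, and 2 were lower in C3H. Il15, the survival factor of NK cells and memory CD8 T cells, went from 2.62 ± 0.84 to 0.529 ± 0.190 FPKM (SD) in C57B (log2 -1.22 ± 0.16 SE, limma adjusted p = 3.68e-06). Il18, an activator of NK cells, went from 13.6 ± 2.89 to 7.91 ± 1.93 FPKM in C57B and stood at 19.8 ± 4.72 in C3H after hyperoxia (strain difference log2 1.22 ± 0.13 SE, limma adjusted p = 6.97e-07). Cx3cl1, an endothelial chemokine for cytotoxic cells, went from 15.2 ± 3.07 to 7.99 ± 1.02 FPKM in C57B and was at 12.3 ± 0.78 in C3H after hyperoxia. For the interaction, 3 of 4, 6 of 18, 2 of 8, 6 of 18, 1 of 11, 0 of 3 and 3 of 6 genes of these lists were past the threshold with a higher value in C3H, in the order receptor complex, signalling, granule, NK receptor, homing, innate-like and ligand. Of the 6 NK receptor genes, 4 were Klra genes, and 2 of 14 passed without them. Cxcl12 was the 1 gene of these lists with a lower interaction (log2 -0.95 ± 0.19 SE, limma adjusted p = 0.00423).

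**Figure D4:**
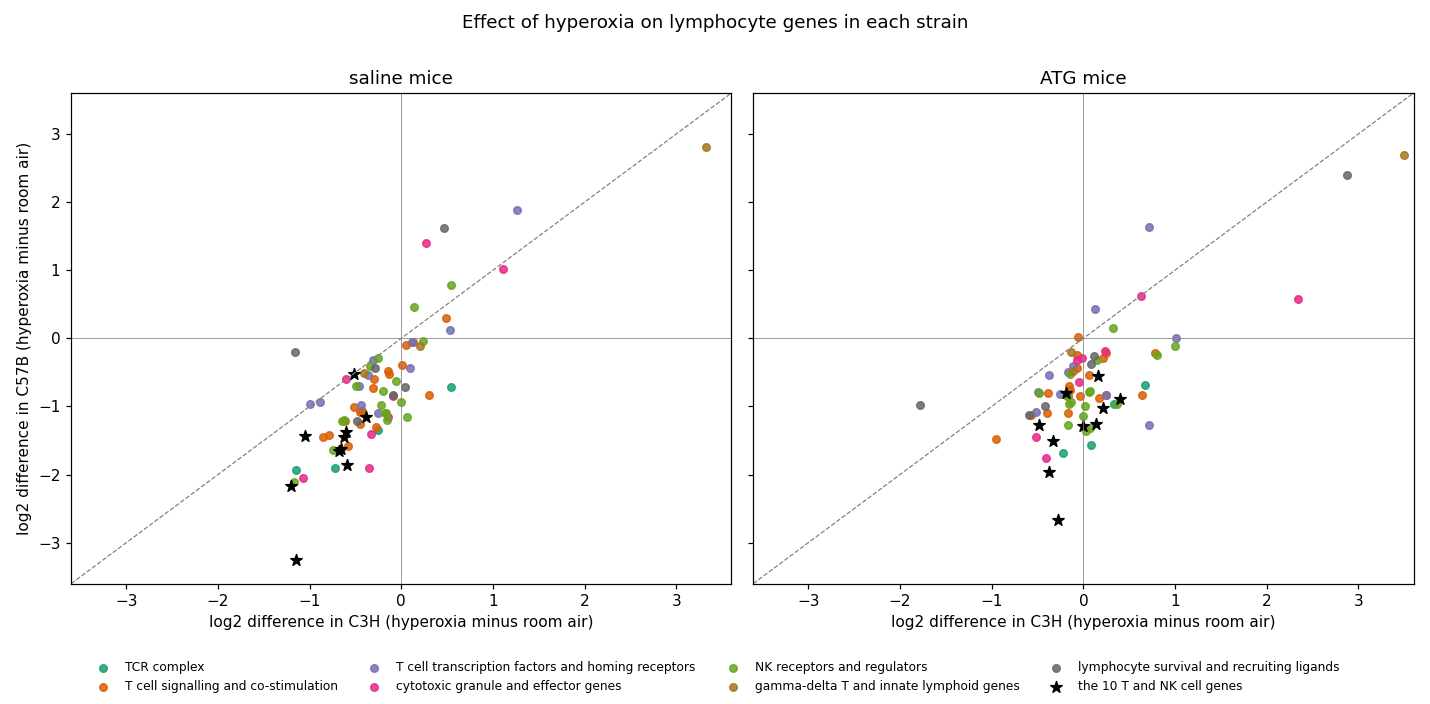
Log2(FPKM + 1) difference between hyperoxia and room air in C3H (x axis) and in C57B (y axis), with 1 coloured point per gene of the T and NK cell lists, stars for the 10 members and a dashed line of equal effect, for saline and ATG mice. In saline mice most points lie where both values are negative, with Gzma at -1.15 in C3H and -3.26 in C57B, and Areg (3.32 and 2.81) and S1pr1 (1.26 and 1.89) where both are positive.

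Markers of other cells were read for the same exposure, where 31.8% of all genes were higher and 28.3% lower over both strains. Counts near these shares say nothing particular of a cell type. Summed FPKM of 6 B cell markers had a median of 95.5 (80.7 to 107.8) in C57B room-air lungs and 26.5 (17.1 to 33.8) in hyperoxia, against 39.2 (21.9 to 73.5) and 20.9 (19.2 to 24.5) in C3H. Of those markers, 5 of 6 were lower over both strains. Red blood cell markers, 4 of 4 lower, had a median sum of 10900 in C57B room-air lungs and 572.6 in hyperoxia, and of 14760 and 809 in C3H. Neutrophil markers, 5 of 6 higher over both strains, went from a median sum of 468.2 (185.2 to 795.4) to 3081 (164.7 to 4895) in C57B and from 189.9 (137.6 to 315) to 208.6 (178.6 to 6299) in C3H. Lung epithelial markers fell from 148000 to 18510 in C57B and from 124900 to 39240 in C3H, 5 of 6 lower over both strains. The 4 pan-leukocyte markers, 2 of them higher and none lower over both strains, had medians of 278.5 and 289.6 in C57B and 182.7 and 235.3 in C3H. Thymocyte markers, of which 2 of 7 passed the filter, went from a median sum of 9.77 (7.06 to 21.1) to 1.99 (0.934 to 2.68) in C57B and from 6.56 (4.37 to 8.63) to 3.01 (2.46 to 5.19) in C3H, with Rag1 at 0 in most lungs. Most of that sum is Cd1d1, which is also expressed outside the thymus, with means of 7.11 and 1.22 FPKM in C57B and 5.17 and 2.66 in C3H. Of 6 lymph node markers, 2 passed the filter over both strains. Cxcl13, a chemokine that draws B cells, was higher in hyperoxia, going from a mean of 2.18 to 14.8 FPKM in C57B and from 2.25 to 6.24 in C3H, and Cr2, a complement receptor also found on B cells, was lower, going from 1.05 to 0.0517 and from 0.954 to 0.302. Over both strains, 4 of 6 alveolar macrophage markers were higher and 2 lower, 2 of 5 monocyte markers were higher and 2 lower, and 2 of 6 dendritic cell, 4 of 5 proliferating cell and 3 of 4 heart muscle markers were lower, with 1 of 4 endothelial markers higher and 1 lower. The part of each of these in the members' differences was not tested.

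**Figure D5:**
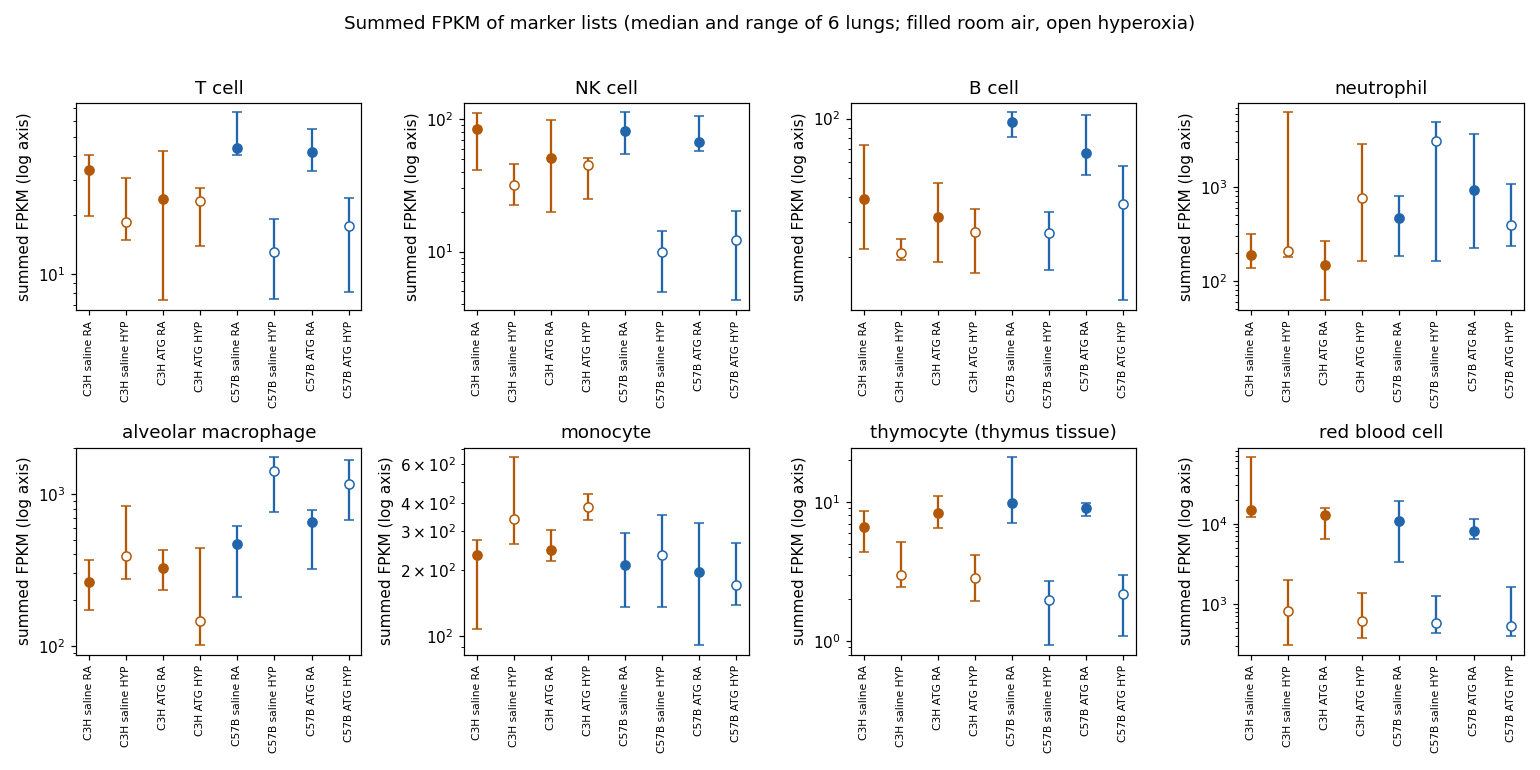
Summed FPKM (log axis, own scale in each panel) of 8 lists of cell markers in the 8 groups of strain, injection and air, with the median of 6 lungs as a point (filled for room air, open for hyperoxia) and the range as a line. In saline C57B mice the B cell sum goes from a median of 95.5 to 26.5 and the neutrophil sum from 468.2 to 3081.

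The hyperoxia response did not differ between the sexes past the threshold for any member in saline mice (0 of 10 with limma, 2 at an unadjusted p under 0.05, 0.0368% of all genes called). The smallest adjusted p was 0.162, for Cd3d. Lower interactions made up 16.7% of the few calls over all genes, 75% with quantile normalization and 50% with median-ratio scaling.

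The same comparison was made in the 24 mice injected with ATG, which share no mouse with the saline set. Averaged over strains and sexes, 7 of 10 members were lower in hyperoxia (26.0% of all genes), with a member median of -0.60 and a median of all genes of 0.06. Cd3d, Cd4 and Lck did not pass. Without the lungs with Rag1 the count was 4. The values within each strain, a comparison added after seeing the data, differed widely.

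In C57B mice with ATG, all 10 members were lower in hyperoxia (25.4% of all genes), Cd4 only narrowly. Of the 10, 7 had no overlap between air groups (13.5% of all genes). Gzma went from 34.4, 46.9 and 75.8 FPKM (lowest, median, highest) in room air to 2.33, 7.58 and 11.2 in hyperoxia (log2 -2.67 ± 0.28 SE, limma adjusted p = 8.37e-08). Nkg7 went from 13.6, 16.1 and 22.7 to 1.66, 2.79 and 7.13 FPKM (log2 -1.96 ± 0.34 SE, limma adjusted p = 6.76e-05). Ncr1 went from 1.30, 2.55 and 3.35 to 0, 0.516 and 0.965 FPKM (log2 -1.27 ± 0.20 SE, limma adjusted p = 1.87e-05).

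Cd3e in these C57B mice went from 4.57, 6.99 and 8.39 FPKM to 0.751, 2.23 and 3.13 (log2 -1.25 ± 0.31 SE, limma adjusted p = 0.00199). Cd3g (log2 -1.51), Prf1 (-1.28), Cd3d (-1.03), Lck (-0.90), Cd8a (-0.80) and Cd4 (-0.56) passed as well. Cd4 was nearest to the threshold (limma adjusted p = 0.0491), and its call was lost in 22 of 31 alternative fits. The groups overlapped for Cd3d, Cd4 and Cd8a. The within-lung Ncr1 to Cd3e ratio differed by -0.02 between air groups (exact permutation adjusted p = 0.983), and with a pseudocount of 0.1 by -0.93 (exact permutation adjusted p = 0.0928).

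In C3H mice with ATG, 1 of 10 members was lower in hyperoxia (17.5% of all genes) and none had separate groups (8.86% of all genes). The 1 was Ncr1, at 2.84, 5.12 and 7.00 FPKM in room air and 1.38, 3.67 and 4.45 in hyperoxia (log2 -0.49 ± 0.20 SE, limma adjusted p = 0.0493). Its call was lost in 15 of 24 fits that left out 1 mouse, without the lungs with Rag1, with a pseudocount of 0.1, with no filter and with all 48 mice in the fit. Gzma was at 13.5, 32.7 and 63.6 FPKM in room air and 18.3, 26.6 and 38.0 in hyperoxia (log2 -0.28 ± 0.28 SE, limma adjusted p = 0.432). In C3H room-air lungs each member had a lower mean with ATG than with saline. For Cd3e these were 3.47 and 5.10 FPKM, and for Gzma 37.2 and 52.3. In C3H hyperoxia lungs each mean but that of Cd3g was higher with ATG, with Cd3e at 3.32 and 2.90 FPKM. These differences within C3H, and whether the hyperoxia response differed between ATG and saline mice, were not tested.

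Cd3e in C3H mice with ATG was at 0.582, 2.82 and 8.98 FPKM in room air and 1.57, 3.41 and 4.46 in hyperoxia (log2 0.13 ± 0.31 SE, limma adjusted p = 0.76), and without C3HM 4 its sign turned (-0.12). Both the lowest value, of C3HM 4, and the highest, of C3HF 28, were in the room-air group, whose spread was wide. Lck was at 4.85 ± 2.31 FPKM (SD) in room air and 6.37 ± 1.89 in hyperoxia (log2 0.40 ± 0.24 SE, limma adjusted p = 0.174). Median over the members was -0.10 and over all genes 0.11, and with quantile normalization or median-ratio scaling lower genes made up 50.5% and 50.3% of calls in place of 36.5%.

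The interaction in ATG mice was past the threshold for 6 members with a higher value in C3H (8.27% of all genes): Gzma (log2 2.39 ± 0.39 SE, limma adjusted p = 0.00049), Lck (1.30 ± 0.33, 0.0139), Nkg7 (1.58 ± 0.49, 0.0359), Cd3e (1.39 ± 0.44, 0.0435), Cd3d (1.25 ± 0.40, 0.0442) and Prf1 (1.27 ± 0.41, 0.0457). The members' median was 1.26 and that of all genes 0.05. Of these, Gzma was the 1 member that passed without the lungs with Rag1 (log2 2.44, limma adjusted p = 0.0038), and the count was 2 with no filter on low values. Leaving out 1 mouse gave counts of 2 to 8, with 2 or 3 in 15 of 24 fits, such as those without C3HM 4, C3HM 12, C57BM 18 or C57BF 41. Lower genes made up 37.8% of calls with FPKM as deposited, 52.8% with quantile normalization and 52.5% with median-ratio scaling.

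In the wider lists, ATG mice had 3 of 4 receptor complex, 3 of 18 signalling, 2 of 9 granule, 10 of 17 NK receptor, 3 of 11 homing, 0 of 3 innate-like and 2 of 6 ligand genes with a higher interaction in C3H, with 7 of 13 NK receptor genes when the Klra genes were left out, and 1 homing gene, S1pr1, with a lower one (log2 -0.92 ± 0.17 SE, limma adjusted p = 0.00166). Klrg1, an inhibitory receptor of mature NK cells, fell in C57B by a log2 difference of -1.27. Cxcl10, a chemokine that draws activated T and NK cells, was higher in hyperoxia in both strains, going from 1.29 ± 0.74 to 17.9 ± 8.74 FPKM (SD) in C3H and from 2.46 ± 1.23 to 16.9 ± 5.10 in C57B. Il18 was lower in both, going from 22.0 ± 2.72 to 6.11 ± 2.70 FPKM in C3H and from 14.8 ± 5.26 to 6.83 ± 1.47 in C57B. Ccl4, a chemokine of T cells, NK cells and macrophages, was higher in C3H (log2 2.34 ± 0.24 SE) with an interaction of 1.76 ± 0.34 (SE, limma adjusted p = 0.00218).

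Markers of other cells in ATG mice were read the same way, and whether they moved otherwise than in saline mice was not tested. Of all genes, 17.5% were lower and 30.4% higher in C3H, and 25.4% were lower and 30.7% higher in C57B. Counts near these shares say nothing particular of a cell type. The B cell sum had medians of 31.7 in room air and 26.6 in hyperoxia in C3H, with 0 of 6 markers past the threshold in limma (0 at an unadjusted p under 0.05), and of 67.3 and 36.9 in C57B, with 5 of 6 lower. The neutrophil sum went from 146.4 (62 to 264.4) to 761.3 (162 to 2899) in C3H, with 6 of 6 higher, and from 936.2 (226.5 to 3649) to 392.5 (235.1 to 1083) in C57B, with 1 of 6 lower. Of the 4 pan-leukocyte markers, 3 were higher in C3H and 2 lower in C57B. Medians of the red blood cell sum went from 12700 to 617.8 in C3H and from 7997 to 523.2 in C57B, and those of lung epithelium from 116900 to 43310 and from 166400 to 26450, with 4 of 4 and 5 of 6 markers lower in each strain. The thymocyte sum went from 8.33 to 2.83 in C3H and from 9.12 to 2.19 in C57B, again mostly Cd1d1. Of 5 monocyte markers, 3 were higher in C3H and 2 higher and 1 lower in C57B. Of 6 alveolar macrophage markers, 2 were lower in C3H and 3 higher and 2 lower in C57B. Cxcl13 was higher in both strains, from a mean of 2.65 to 11.2 FPKM in C3H and from 1.73 to 13.3 in C57B. Their part in the members' values was not tested.

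The last question was the effect of ATG itself. In room air no member passed the test of ATG against saline (limma, 4 members at an unadjusted p under 0.05, 0.0185% of all genes called), and the smallest adjusted p was 0.665, for Lck. The effect of ATG did not differ between strains past the threshold for any member either (0 of 10 with limma, 0 at an unadjusted p under 0.05, 0% of all genes called). In hyperoxia, 1 of 10 members was higher with ATG (3.89% of all genes). Lck was at 5.38 FPKM with ATG and 3.64 with saline over both strains (log2 0.45 ± 0.13 SE, limma adjusted p = 0.0426). This call was lost in 18 of 24 fits that left out 1 mouse and in 5 of 7 other alternatives, with adjusted p up to 0.075, while its log2 value stayed between 0.38 and 0.55. With quantile normalization or median-ratio scaling, lower genes made up 54.4% and 59% of the calls in this comparison in place of 28.9%. The strain difference in the ATG effect in hyperoxia had no member past the threshold (0 of 10 with limma, 0 at an unadjusted p under 0.05, 0.416% of all genes called).

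The genes whose levels followed the members most closely were read from Pearson correlations of log2(FPKM + 1) over 48 lungs among 16994 genes, as a description, since the lungs share strain, exposure and depth effects. For Cd3e the nearest members were Cd3d (r = 0.909), Lck (0.906) and Nkg7 (0.849), and Cd4 (0.64) and Ncr1 (0.497) were the farthest. Outside the 10 genes, Spn (0.879), Gimap7 (0.879), Ms4a4b (0.873), Skap1 (0.869) and Trbc2 (0.865) came closest. After each group's mean was subtracted, so that the values no longer carry differences between groups, Trac (0.769), Il2rb (0.767), Skap1 (0.766) and Spn (0.766) came closest, with Cd3d at 0.848 and Lck at 0.813. For Ncr1 the nearest members were Gzma (0.815), Prf1 (0.77) and Nkg7 (0.672), and Cd8a (0.239) and Cd4 (0.189) were the farthest. Outside the 10 genes, Pgm5 (0.868), Rcn1 (0.865) and Kank4 (0.859) came closest to Ncr1 over the 48 lungs, and Rgs2 (0.663) once the group means were subtracted. None of the 3 genes nearest to Ncr1 over all lungs is on the NK receptor list.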

How the data were processed

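Whole lung RNA of 48 mice was sequenced, 1 library per mouse and 3 mice in each of 16 groups of strain, sex, injection and air. Per the labels the authors deposited FPKM per gene for each mouse, and the submitters' processing notes name GSNAP, SAMtools, Cufflinks and mm10. FPKM carry no read counts, so the depth behind each value is unknown, no counting interval could be given, and the number of mice limits the precision. The study's methods cover 12 lungs and describe no injection or exposure, so these are known here from the labels and the series text.

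Genes with 1 FPKM or more in 3 or more of a comparison's mice were fitted as log2(FPKM + 1) in limma 3.58.1 (R 4.3.3, empirical Bayes with trend), and a gene was called at a Benjamini-Hochberg adjusted p under 0.05 over all genes tested. Baseline fits held 15546 genes in 12 mice, the saline and ATG fits 16321 and 16206 genes in 24 mice each, and the ATG against saline fits 16228 genes in room air and 15860 in hyperoxia. One mouse is one replicate. The scripts were tested on simulated data first. Ratios within a lung were compared by exact permutation tests. Akap5 was left out as a failed estimate, Foxp3 and other genes of the X chromosome are listed at 0, and Trgc1 and Trgc2 were not analysed here. All 48 columns were mapped to mice.

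The members and the gene lists were chosen with earlier results of these data known. All 10 members are named. From each list, at most 4 genes per comparison are named, those with the largest log2 difference among genes past the threshold without overlap of groups, or otherwise the gene with the smallest adjusted p, and a gene so named in 1 comparison may be given in others. The 8 genes most correlated with Cd3e and with Ncr1 were drawn up, and the closest are named. Alternatives were a pseudocount of 0.1, no filter, quantile normalization, median-ratio scaling, limma without trend, all 48 mice in 1 fit and each mouse left out in turn. Fits without the 6 lungs with Rag1, within-strain fits in ATG mice and the NK receptor list without Klra genes were added after seeing the data.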

Additional observations from a re-analysis of the deposited data

Results flagged for a closer look

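In each of 80 groups of 6 lungs (10 genes in 8 groups), the gap between the most extreme lung and its neighbour was compared with the whole range of the group, and 10 groups passed Dixon's 95% critical value for 6 values. For independent values from 1 normal distribution, chance alone passes about 1 in 20 groups. These groups hold FPKM of both sexes, and the genes are correlated over the same lungs, so that rate need not hold here. The largest gap was that of Cd3g in C3HF 33 (saline, hyperoxia), at 0.86 of the range, with 15.5 FPKM against 3.97 to 5.59 in the other 5 lungs. Cd3g also stood apart in C57BF 40 (ATG, room air), at 0.73, with 18.1 FPKM against 9.99 to 12.2. Cd4 of C57BF 43 (saline, hyperoxia) had a gap of 0.733, with 6.72 FPKM against 0.618 to 2.25, while the same lung was listed at 0 for Ncr1 and had the lowest Nkg7 and Prf1 of all 48. Cd3d of C57BF 45 (saline, hyperoxia) had a gap of 0.727, with 4.94 FPKM against 1.49 to 2.43.

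C57BM 14 (saline, room air) stood apart for Cd8a at 0.72, with 5.65 FPKM against 2.31 to 3.24, and for Lck at 0.639, with 16.6 FPKM against 8.22 to 11.3, and it was the lung with the highest Rag1. C3HF 28 (ATG, room air) stood apart for Cd3e at 0.653, with 8.97 FPKM against 0.582 to 3.50, and for Cd4 at 0.631, with 4.25 FPKM against 0.794 to 2.07. Lck of C57BF 46 (ATG, hyperoxia) had a gap of 0.661, with 7.00 FPKM against 3.07 to 4.40. Cd8a of C3HM 12 (ATG, hyperoxia) had a gap of 0.633, with 1.66 FPKM against 0.486 to 0.919. In all 10 cases the lung that stood apart was the highest of its group.

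The response to hyperoxia differed between the strains, by the interaction term in limma, for 11 pairs of a gene and an injection. In saline mice the difference in log2 response (C3H minus C57B) was 2.11 for Gzma, 1.26 for Cd3g, 0.974 for Cd3d, 0.973 for Lck and 0.82 for Cd3e. In ATG mice it was 2.39 for Gzma, 1.58 for Nkg7, 1.39 for Cd3e, 1.3 for Lck, 1.27 for Prf1 and 1.25 for Cd3d. Of 31 alternative fits, the call was lost in 21 for Cd3g in saline mice. In ATG mice it was lost in 23 for Prf1, 20 for Cd3e, 18 for Cd3d and 13 for Nkg7. Gzma, Cd3d, Cd3e and Lck passed in both sets of mice.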

How the results depend on the processing

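The counts of members lower in hyperoxia in saline mice (10 over both strains, 6 in C3H, 9 in C57B), and the 10 in C57B mice with ATG (7 without the Rag1 lungs), were within 1.5 times of these values under each alternative run. Depth cannot be read from FPKM, so its limits on low members such as Ncr1 and Cd8a are unknown, and the groups of 6 bound the precision. The cause of the changes below was not tested. The 6 lungs with Rag1 are all C57B. Leaving them out thus keeps the log2 differences within C3H and can change only their SE and adjusted p. No paired analysis was possible because each mouse has its own number and no number is shared between groups.

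Without the 6 lungs with Rag1, which leaves C57BM saline room air with 1 mouse whose spread was taken from the other groups, members past the threshold numbered 0 for strain at baseline (3 with all lungs, of which this comparison holds 2 with Rag1), 2 for the strain difference in response in saline mice (5), 4 for strain in saline hyperoxia lungs (7), 4 for hyperoxia in ATG mice (7), 0 in C3H mice with ATG (1), 1 for the strain difference in response in ATG mice (6) and 0 for ATG in hyperoxia (1). Quantile normalization gave 1 for strain, 2 for the strain difference in response in saline mice, 2 for strain in hyperoxia and 0 for ATG in hyperoxia. Median-ratio scaling gave 4 for strain in hyperoxia and 0 for ATG in hyperoxia. With no filter on low values the counts were 4 for strain in hyperoxia, 2 for the strain difference in response in ATG mice, 0 in C3H mice with ATG and 0 for ATG in hyperoxia. All 48 mice in 1 fit gave 1 for strain, 0 in C3H mice with ATG and 0 for ATG in hyperoxia. A pseudocount of 0.1 gave 0 in C3H mice with ATG.

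Leaving out 1 mouse at a time gave 2 to 4 members for strain, 0 to 1 for sex, 0 to 4 for strain by sex, 4 to 6 for the strain difference in response in saline mice, 2 to 8 for it in ATG mice, 2 to 8 for strain in hyperoxia, 0 to 1 in C3H mice with ATG and 0 to 1 for ATG in hyperoxia.

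Members whose sign turned had small log2 differences and no call. Cd4 turned to 0.0107 for strain with quantile normalization, to -0.288 with quantile normalization and -0.122 with median-ratio scaling for the strain difference in response in saline mice, and to 0.00773 for ATG in hyperoxia without the Rag1 lungs. For strain by sex it was 0.225 with quantile normalization, 0.114 with median-ratio scaling and 0.196 without the Rag1 lungs. Prf1 in C3H mice with ATG turned to 0.0417 with a pseudocount of 0.1. With 1 mouse left out, Cd4 ranged from -0.203 to 0.201 for strain by sex, -0.143 to 0.237 for the strain difference in response in saline mice, -0.311 to 0.0687 for strain in hyperoxia and -0.123 to 0.0717 for ATG in hyperoxia. Prf1 ranged from -0.135 to 0.28 for strain and -0.258 to 0.262 for hyperoxia in C3H mice with ATG, Cd3g from -0.413 to 0.346 for strain by sex, and in C3H mice with ATG Cd3d from -0.0239 to 0.395 and Cd3e from -0.117 to 0.411.

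Of the log2 ratios, Cd8a to Cd4 in C3H mice with ATG was -0.63 with a pseudocount of 0.1, past the threshold, and Ncr1 to Cd3e turned to -1.34 in C57B saline mice and went from -0.0172 to -0.929 in C57B mice with ATG. With 1 mouse left out, Cd8a to Cd4 ranged from -0.421 to -0.27 in C3H mice with ATG and from -0.729 to -0.344 in C57B saline mice, and Ncr1 to Cd3e from -0.823 to -0.478 in C3H mice with ATG, -0.115 to 0.134 in C57B mice with ATG and -0.195 to 0.13 in C57B saline mice.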
